A study of Mus musculus with 15 samples.

Results

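The genes of the urea cycle and of ammonia handling were followed through 15 mouse liver RNA-sequencing libraries. They were chosen by gene symbol, as Cps1, Otc, Ass1, Asl, Arg1, Nags, Slc25a15, Slc25a13 and Gls2, and all 9 were found among the 18131 genes of the count table and passed the filter on low counts. The livers came from male C57BL/6 mice, labelled 6 months old, whose feeding began at 6 weeks of age. The study compared 4 groups of 3 libraries. KO HSD were mice labelled Sirt3-/- on a high salt diet with 8% NaCl, WT HSD were wild-type mice on that diet, KO NSD were mice labelled Sirt3-/- on a normal salt diet with 0.4% NaCl, and WT NSD were wild-type mice on normal salt. A further 3 libraries, whose titles give a diet but no genotype and whose other labels give the wild type, are called the additional wild-type set, with 2 libraries on high salt and 1 on normal salt. The labels give 4 months of diet in one place and 8 weeks in another. The knockout allele, the cells in which it is deleted and whether libraries came from separate animals are not given in the labels.

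The urea cycle turns ammonia, which is toxic to the brain, into urea for excretion, and in mammals the full cycle runs in the liver, mostly in the periportal hepatocytes near the incoming blood. In the mitochondria, carbamoyl phosphate synthetase 1 (Cps1) joins ammonia and bicarbonate, but only when bound by N-acetylglutamate, which N-acetylglutamate synthase (Nags) makes. Ornithine transcarbamylase (Otc) then forms citrulline. In the cytosol, argininosuccinate synthetase (Ass1) adds aspartate, argininosuccinate lyase (Asl) releases arginine, and arginase (Arg1) splits arginine into urea and ornithine. The ornithine carrier (Slc25a15) returns ornithine to the mitochondria, citrin (Slc25a13) exports the aspartate that Ass1 uses, and liver glutaminase (Gls2) releases ammonia from glutamine beside Cps1. Sirt3 encodes a mitochondrial deacetylase, and Otc protein is one of its described substrates, an effect that RNA levels do not measure. Salt loading has been linked to urea production as a way of saving water.

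On GRCm38.p6, the assembly of mm10, RefSeq places the genes on 8 chromosomes. Cps1 lies at chr1:67122426-67231267 on the plus strand and Otc at chrX:10252230-10321024 on the plus strand. Ass1 lies at chr2:31470270-31520670 on the plus strand and Asl at chr5:130011258-130024381 on the minus strand. Arg1 lies at chr10:24915207-24927470 on the minus strand and Gls2, on the same chromosome, at chr10:128194635-128210004 on the plus strand. Nags lies at chr11:102145513-102149528 on the plus strand, Slc25a15 at chr8:22375550-22398621 on the minus strand and Slc25a13 at chr6:6041218-6217304 on the minus strand. In the GENCODE annotation, from which the strands were also taken, Gls2 overlaps Spryd4 by 97 bases and Nags overlaps the antisense gene Gm11586 by 698 bases. The sources used here do not state whether the libraries kept strand, so reads in these overlaps could belong to either gene and the values of Gls2 and Nags are less certain than the others. The expected counts of Gls2 were whole numbers in 0 of 15 libraries, those of Slc25a15 and Slc25a13 in 14, and those of the other 6 genes in all 15.

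Promoter sequences of RefSeq were matched by symbol for 5 of the 9 genes, each a window of 300 bases with 250 before and 50 after a transcript start. Those of Otc, whose main libraries separated by diet, and of Ass1, the gene with the highest level, are shown as the plus strand from 5′ to 3′. Capitals mark CAAAG or its reverse complement, the core of a half-site for HNF4A, the nuclear receptor that keeps hepatocyte genes active. The windows are chrX:10252055-10252354 and chr2:31470020-31470319, both on the plus strand of GRCm38.p6.
Otc: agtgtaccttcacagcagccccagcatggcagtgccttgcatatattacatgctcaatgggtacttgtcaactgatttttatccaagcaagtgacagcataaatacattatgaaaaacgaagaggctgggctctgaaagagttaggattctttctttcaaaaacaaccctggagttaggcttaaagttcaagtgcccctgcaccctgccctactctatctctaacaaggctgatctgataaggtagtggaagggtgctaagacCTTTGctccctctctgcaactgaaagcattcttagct
Ass1: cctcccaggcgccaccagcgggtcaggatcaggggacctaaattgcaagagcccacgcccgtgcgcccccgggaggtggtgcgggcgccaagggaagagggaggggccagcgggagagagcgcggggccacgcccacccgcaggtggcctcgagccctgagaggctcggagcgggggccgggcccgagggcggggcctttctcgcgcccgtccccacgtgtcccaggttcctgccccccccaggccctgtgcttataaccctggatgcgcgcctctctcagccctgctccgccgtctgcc
The Otc window was 44.3% G and C, and 20.1% of the 32851 promoter windows in the table had a lower share. The Ass1 window was 74.0% G and C, and 95.2% of the windows had a lower share, the median being 52.7%. The Otc window held 1 match of CAAAG, on the minus strand 14 bases past the start site, and 53.9% of all windows held at least 1 on either strand. The Ass1 window held no match of it and 1 of GGGCGG, the GC box bound by SP1, on the plus strand 63 bases before the start site; 35.7% of all windows held that motif. Neither window held TATAAA, TTGCNNAA (a C/EBP site), TGGAAA (a core of NFAT sites) or AGAACA (a glucocorticoid receptor half-site) on either strand, which 13.6%, 10.8%, 21.4% and 19.0% of all windows held. None of the motifs overlaps another in these windows. A match is a string of letters and shows no binding.

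Library totals ranged from 15726897 to 19539406 expected counts. Sirt3 did not separate the labels, with 43.4 to 68.8 CPM (counts scaled to the library total) in the 6 libraries labelled knockout against 49.8 to 83.9 CPM in the 6 wild-type libraries of the main groups, and its log2 fold change was -0.03 on normal salt and -0.20 on high salt (edgeR quasi-likelihood test, adjusted p of 0.969 and 1.00). Gene-level counts cannot show a deletion of some exons, and an allele of that kind and exchanged labels cannot be told apart from these counts. "KO" therefore stands for libraries labelled so. KO NSD 1 and KO NSD 3, although labelled male, held at most 4 counts of the Y-linked gene Ddx3y, against 381 to 936 in the other 13 libraries. Comparisons with KO NSD include these libraries, and values without them are given for the genes that moved most. Markers of hepatocytes made up 103200 to 160700 CPM in every library for 7 genes, and the summed kidney markers did not pass 0.120 CPM. Kupffer cell and macrophage markers summed to 320 to 1027 CPM in KO NSD, against 182 to 247 CPM in WT NSD, with all 10 genes above 0 on the log2 scale, a median log2 fold change of 1.77 and 0 called. Of these, Csf1r had 101.9, 40.1 and 87.1 CPM in KO NSD 1, 2 and 3, against 19.4 to 26.0 CPM in WT NSD. Adgre1 had 21.5, 7.16 and 19.5 CPM, against 3.77 to 8.18 CPM. Both were thus highest in the 2 libraries without Y-linked transcripts. Neutrophil markers summed to 58.4 to 147 CPM in KO NSD, against 11.4 to 23.1 CPM in WT NSD, and 4 of 7 were called higher. S100a9 had 61.5, 21.6 and 32.5 CPM in KO NSD 1, 2 and 3, against 0.902 to 3.31 CPM in WT NSD. In whole tissue, a change in the number of cells of a type and a change in RNA per cell cannot be told apart.

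All 9 genes were well expressed in every library. To compare genes with one another, levels are given as FPKM, fragment counts scaled by transcript length and library total. Ass1 had the highest level of the set in every library, with a median of 1938 FPKM and a range of 1192 to 2873, and it ranked between 29 and 64 among all genes. Arg1 was second in every library, with a median of 667 FPKM and a range of 481 to 995. Cps1, with a median of 404 FPKM, and Asl, with 229 FPKM, came next, in changing order. Otc followed with a median of 160 FPKM and Gls2 with 126 FPKM, again in changing order. The mitochondrial carriers and the activator enzyme were lowest, Slc25a15 with a median of 46.9 FPKM, Slc25a13 with 45.8 FPKM and Nags with 34.7 FPKM, and ranges of 32.6 to 66.9, 30.3 to 60.6 and 17.9 to 45.5 FPKM that overlap. Together the genes took 0.53% to 1.01% of all counts, the lowest share in KO HSD 3 and the highest in the additional WT HSD 1. The steadiest gene was Arg1, whose highest library was 1.71 times its lowest in CPM, and the most variable was Asl, at 2.87 times.

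**Figure D1:**
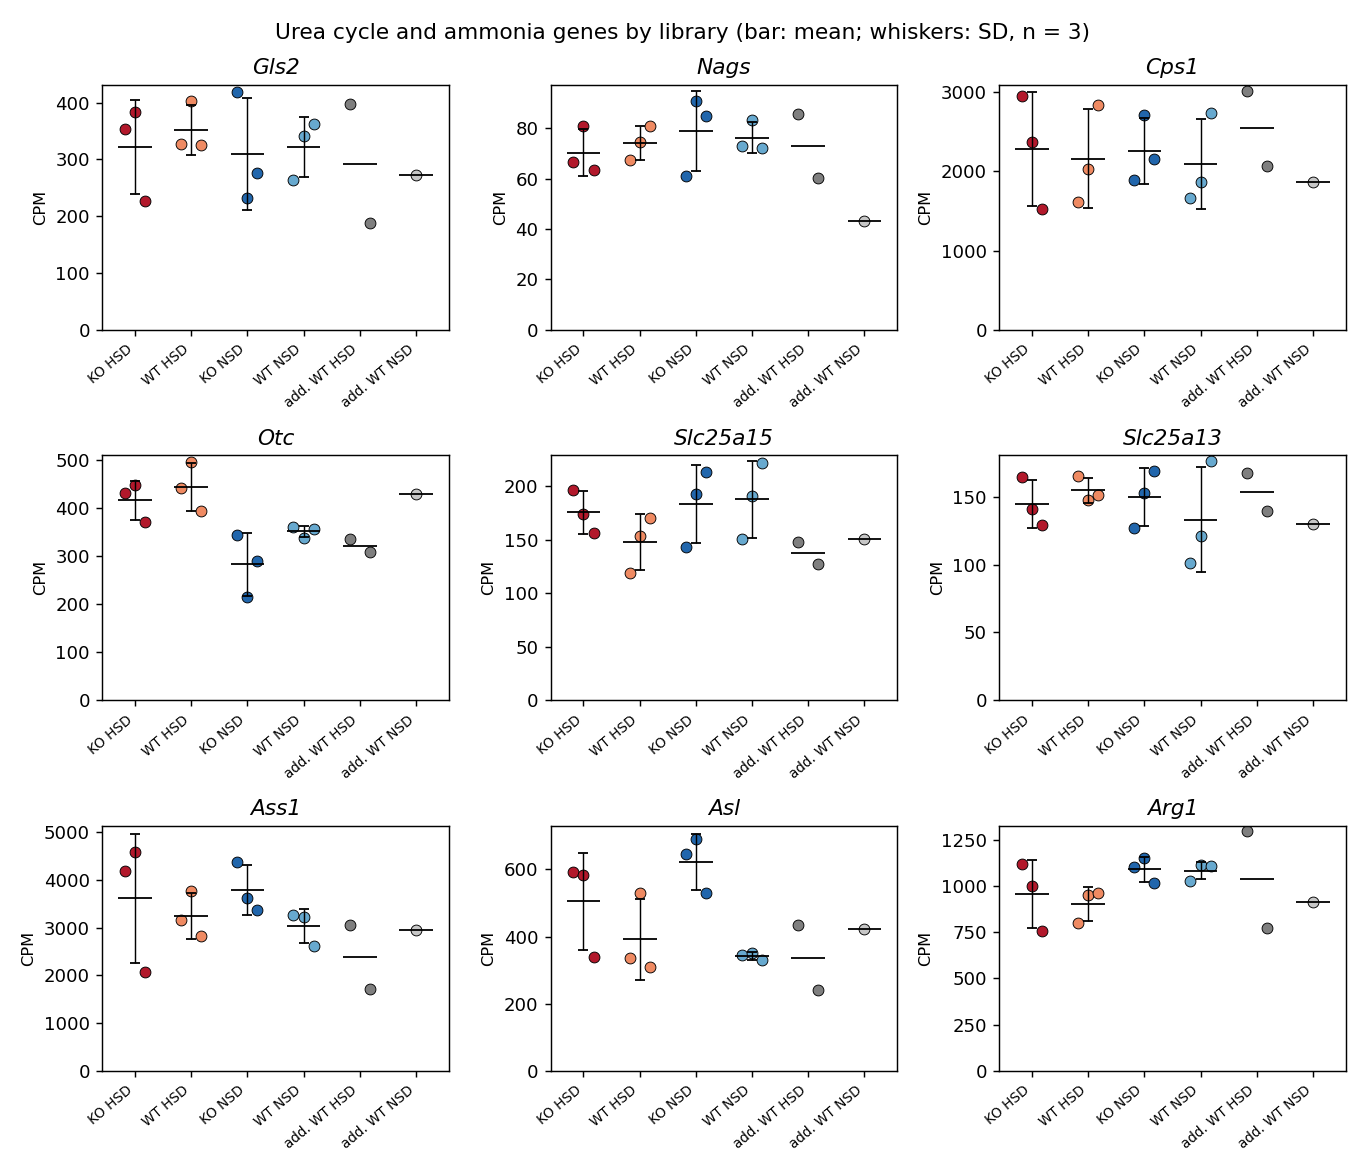
Level of each of the 9 genes in CPM (linear axes that start at 0) in every library, with groups from left to right as KO HSD, WT HSD, KO NSD, WT NSD, additional WT HSD and additional WT NSD; points are libraries, horizontal bars group means and whiskers the SD where a group has 3 libraries. Asl stands higher in all 3 KO NSD libraries than in WT NSD, and Otc is higher in the 6 high salt libraries of the main groups than in the 6 on normal salt.

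The comparison of KO NSD with WT NSD asks what the labelled loss of Sirt3 goes with on a normal diet. None of the 9 genes was called (0 of 9, edgeR with Benjamini-Hochberg adjustment over all genes), where 0.414% of the 13051 genes tested were, 31 higher and 23 lower. limma-voom called 0 of 9 and DESeq2 called 1, Asl. Of all 13051 genes, limma-voom called 29 and DESeq2 661, where edgeR called 54. At an unadjusted p under 0.05, 1 of 9 passed, again Asl, against 14.3% of all genes. The median log2 fold change of the 9 genes was 0.05, with 6 above 0, beside 0.01 over all genes tested.

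Asl, the lyase that releases arginine, had 646, 691 and 529 CPM in KO NSD, against 344, 350 and 329 CPM in WT NSD. All KO NSD libraries lay above all WT NSD libraries, and the WT NSD values lay close together. Wild-type libraries outside WT NSD spread more widely. Asl had 421 CPM in the additional WT NSD library and 433 and 241 CPM in the additional WT HSD libraries. In WT HSD 2 it had 531 CPM, above KO NSD 3. The log2 fold change was 0.87 ± 0.25 (SE), or 1.83-fold, with an unadjusted p of 0.00428 and an adjusted p of 0.113 by edgeR. DESeq2 gave 0.86 with an adjusted p of 0.0254. Over all alternatives the adjusted p of Asl ranged between 0.0254 and 0.580, the highest where KO NSD 1 and KO NSD 3 were left out and KO NSD 2 alone remained, with a log2 fold change of 1.01. The difference was present in the library that has Y-linked transcripts and in the pair that lack them. Kupffer cell and neutrophil markers were also higher in KO NSD, by the sums given above, with Csf1r and Adgre1 highest in KO NSD 1 and KO NSD 3. The part of these cells in the level of Asl was not tested.

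Ass1, the step before Asl, had 4376, 3627 and 3378 CPM in KO NSD, against 3261, 3221 and 2625 CPM in WT NSD. These libraries did not overlap either, but the log2 fold change was 0.33 ± 0.27 (SE, adjusted p = 0.651), between 0.18 without KO NSD 1 and 0.39 without KO NSD 3 when single libraries were left out. Asl and Ass1 were 2 of 9 genes whose libraries did not overlap, against 19.5% of all genes. The ratio of Ass1 to Asl in FPKM was 6.60, 5.12 and 6.34 in KO NSD, against 9.28, 8.94 and 7.84 in WT NSD. Every KO NSD library thus held less Ass1 for each unit of Asl than the WT NSD libraries. Other wild-type libraries came near the KO NSD values, with 6.84 and 6.88 in additional WT HSD and 6.97 in additional WT NSD. WT HSD had 9.19, 6.99 and 8.86, and KO HSD had 7.01, 7.69 and 6.11. Otc had 345, 215 and 290 CPM in KO NSD, against 361, 339 and 357 CPM in WT NSD. KO NSD 1 fell among the WT NSD libraries and the others below them, and the log2 fold change was -0.31 ± 0.19 (SE, adjusted p = 0.512). It was -0.72 without KO NSD 1 and KO NSD 3, -0.50 without KO NSD 1 alone and -0.15 without KO NSD 2, and was called in none of these fits. The other 6 genes had log2 fold changes between -0.05 for Gls2 and 0.17 for Slc25a13, all with overlapping libraries. Without KO NSD 1 and KO NSD 3, Gls2 had -0.48, Cps1 0.37 and Nags 0.24, none called. Cps1, the entry step, averaged 2256 ± 418 CPM in KO NSD and 2092 ± 573 CPM in WT NSD (SD, n = 3 each).

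On high salt, KO HSD and WT HSD overlapped for all 9 genes, whereas the libraries of 8.03% of all genes did not. None of the 9 was called by edgeR, limma-voom or DESeq2, and none had an unadjusted p under 0.05, against 0% of all genes called by edgeR and 4.62% at the unadjusted threshold. Asl again had the largest difference, with 592, 584 and 337 CPM in KO HSD, against 336, 531 and 308 CPM in WT HSD. The libraries were mixed, with KO HSD 3 near the low WT HSD libraries and WT HSD 2 near the high KO HSD libraries, and the log2 fold change was 0.37 ± 0.25 (SE, adjusted p = 1.00), between 0.22 without WT HSD 3 and 0.65 without WT HSD 2. The other log2 fold changes ran from -0.13 for Gls2 to 0.25 for Slc25a15.

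**Figure D2:**
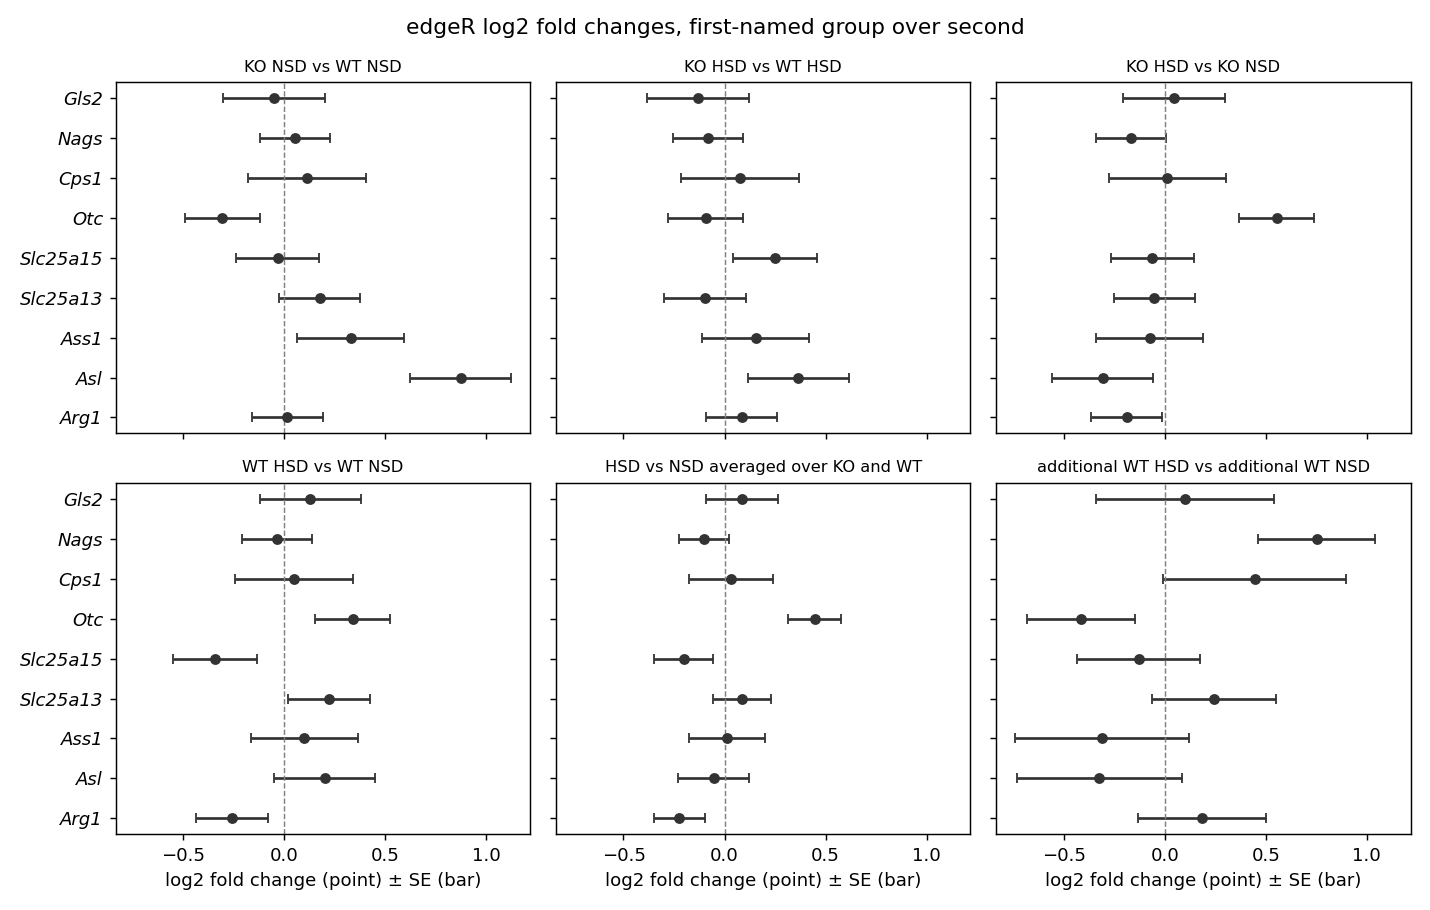
Log2 fold change of each gene (points) with its standard error (bars) in 6 comparisons, from the edgeR fits. Asl at 0.87 ± 0.25 in KO NSD against WT NSD and Otc at 0.45 ± 0.13 in high against normal salt averaged over both genotypes lie farthest from 0 relative to their errors in the main groups.

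The comparison of high with normal salt asks how the diet goes with these genes, and averaged over the genotypes Otc differed most. Averaged over KO and WT, 0 of 9 genes were called by edgeR, limma-voom or DESeq2, where edgeR called 0% of all genes, and 1 of 9 had an unadjusted p under 0.05, against 6.11% of all genes. Otc, which condenses carbamoyl phosphate with ornithine, had 432, 449 and 372 CPM in KO HSD and 443, 496 and 395 CPM in WT HSD, against 345, 215 and 290 CPM in KO NSD and 361, 339 and 357 CPM in WT NSD. All 6 high salt libraries lay above all 6 normal salt libraries, the closest being KO HSD 3 and WT NSD 1. Complete separation of 6 from 6 libraries was seen in 0.207% of all genes, 27 in number, and in Otc alone of the 9. The log2 fold change was 0.45 ± 0.13 (SE), or 1.36-fold, with an unadjusted p of 0.00492 and an adjusted p of 0.680 by edgeR, so Otc did not pass once all genes were counted. Without KO NSD 1 and KO NSD 3 the log2 fold change was 0.65 (adjusted p = 0.485). DESeq2 gave an adjusted p of 0.124, and over all alternatives it ranged between 0.124 and 1. Markers of several other cell types lay below 0 in the averaged comparison. These were 10 of 10 Kupffer cell and macrophage (median -0.36), 6 of 6 sinusoidal endothelial (-0.28) and 5 of 5 cholangiocyte markers (-0.45). So did 5 of 6 stellate cell (-0.30) and 6 of 7 neutrophil markers (-0.67). Above 0 were 4 of 7 hepatocyte (0.00) and 2 of 2 tested pancreas markers (1.13). None was called, and their part in the level of Otc was not tested.

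Within the knockout label, the log2 fold change of Otc in KO HSD against KO NSD was 0.55 ± 0.19 (SE, unadjusted p = 0.011, adjusted p = 0.500 by edgeR). It was the 1 gene of 9 under the unadjusted threshold there, against 8.05% of all genes, and the 1 of 9 whose libraries did not overlap, against 11.7%. Without KO NSD 1 and KO NSD 3, the log2 fold change was 0.97, and KO NSD 2 had the lowest Otc level of all libraries. Markers of several other cell types went the other way in this comparison, with 10 of 10 Kupffer cell and macrophage markers (median log2 fold change -1.09), 6 of 6 sinusoidal endothelial markers (-0.71), 6 of 6 stellate cell markers (-0.66) and 6 of 7 neutrophil markers (-1.67) below 0 and 0 called. Below 0 too were 4 of 5 cholangiocyte markers (-0.59). Above 0 were 2 of 2 tested pancreas markers (1.65) and 5 of 7 hepatocyte markers (0.07), again with 0 called. Kupffer cell and macrophage markers summed to 218 to 507 CPM in KO HSD, against 320 to 1027 CPM in KO NSD. For Csf1r and Adgre1, KO NSD 2 lay within the KO HSD range, at 40.1 and 7.16 CPM, and KO NSD 1 and KO NSD 3 lay above it. In WT HSD against WT NSD, 8 of 10 Kupffer cell and macrophage markers were above 0, with a median of 0.32. The part of these cells in the level of Otc was not tested. In the wild type, Otc in WT HSD against WT NSD had a log2 fold change of 0.34 ± 0.19 (SE, adjusted p = 1.00), with 0 of 9 genes under the unadjusted threshold against 4.47% of all genes, and Slc25a15 was as far from 0, at -0.34 ± 0.21 (SE, adjusted p = 1.00). edgeR called 0% of all genes in either of these comparisons, and edgeR, limma-voom and DESeq2 called 0 of 9. The libraries of Otc and of Arg1 did not overlap in the wild type, 2 of 9 genes against 8.69% of all.

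Arg1, the last step, had 796, 951 and 959 CPM in WT HSD, against 1027, 1111 and 1107 CPM in WT NSD. All WT HSD libraries lay below all WT NSD libraries, opposite to Otc, with a log2 fold change of -0.26 ± 0.18 (SE, adjusted p = 1.00). In the knockout label the libraries overlapped, with 1116, 1000 and 756 CPM in KO HSD against 1103, 1148 and 1015 CPM in KO NSD, and a log2 fold change of -0.19 ± 0.18 (SE, adjusted p = 0.925). Averaged over the genotypes, Arg1 had a log2 fold change of -0.22 ± 0.13 (SE, adjusted p = 0.885) and the ornithine carrier Slc25a15 of -0.20 ± 0.15 (SE, adjusted p = 0.926). Cps1 and Ass1 had 0.03 and 0.01, with libraries that overlapped over nearly their whole range. The median over the 9 genes was 0.01, beside 0.00 over all genes tested, with 5 above 0.

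The difference between the salt effects, KO minus WT, was tested in the same fit. None of the 9 genes was called by edgeR, limma-voom or DESeq2 or had an unadjusted edgeR p under 0.05, where edgeR called 0% of all genes and 5.41% passed the unadjusted threshold. The largest value was that of Asl, at -0.51 ± 0.35 (SE, adjusted p = 0.943), which was -0.22 without WT HSD 2 and -0.62 without WT HSD 3. Its salt effect was -0.31 in KO and 0.20 in WT on the log2 scale. That of Otc was 0.21 ± 0.26 (SE, adjusted p = 1.00), from 0.55 in KO and 0.34 in WT; it was 0.63 without KO NSD 1 and KO NSD 3 and 0.05 without KO NSD 2, again not called.

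The additional wild-type set gave a further comparison of diets, with 2 libraries against 1, and its single normal salt library took its spread from the other groups in the fit. edgeR called 0 of 9 genes, where it called 0.0216% of the 13864 genes tested, and 1 of 9 had an unadjusted p under 0.05, against 12.1% of all. limma-voom and DESeq2 called 0 of 9. Nags, which makes the activator of Cps1, had 85.5 and 60.4 CPM in the additional WT HSD libraries, against 43.3 CPM in the additional WT NSD library. The value of the additional WT NSD library is the lowest of the 15 libraries for Nags, and the log2 fold change was 0.75 ± 0.29 (SE, unadjusted p = 0.0210, adjusted p = 0.412 by edgeR). Without additional WT HSD 1 it was 0.48 (unadjusted p = 0.139 by edgeR). Otc had 337 and 309 CPM in the additional WT HSD libraries, against 430 CPM in the additional WT NSD library, a log2 fold change of -0.41 ± 0.27 (SE, adjusted p = 0.485). This is the opposite direction to the main wild-type groups. The difference between the salt effects, additional WT minus WT, was -0.75 ± 0.32 for Otc and 0.79 ± 0.34 for Nags (SE, unadjusted p = 0.036 and 0.0367, adjusted p = 0.374 for both by edgeR). These are 2 of 9 genes under the unadjusted threshold, against 13% of all genes, with 0% called. The additional HSD libraries had fragments 8.23 and 8.79 bases longer than the shortest of all libraries, which was the additional WT NSD library, so diet and fragment length cannot be told apart in this set.

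Fragment length, read from the ratio of counts to FPKM over 908 genes, spanned 9.51 bases between libraries. Cps1 was higher where fragments were longer, with Pearson r = 0.747 and Spearman rho = 0.775 over 15 libraries (permutation test, p = 0.00276 and 0.0011, adjusted over 9 genes 0.0248 and 0.0099). Leaving out the 2 libraries farthest from the median length, WT NSD 3 and the additional WT NSD library, gave r = 0.730. Slc25a13 had r = 0.632 and rho = 0.632 (permutation p = 0.0109 and 0.0136, adjusted 0.0492 and 0.061), and r = 0.552 without those libraries. The other 7 genes had r between -0.34 for Otc and 0.35 for Nags, with adjusted p of at least 0.418. Of 7299 genes, 16.4% had a larger absolute r than Cps1 and 31.8% than Slc25a13. Between deviations from the group means, r was 0.760 for Cps1, 0.677 for Slc25a13 and 0.685 for Slc25a15, and between -0.10 and 0.28 for the other 6 genes; a single group held too few libraries for a value of its own. With fragment length as a term in the fit, Asl in KO NSD against WT NSD had a log2 fold change of 0.89 and Otc in high against normal salt of 0.44, and neither was called.

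**Figure D3:**
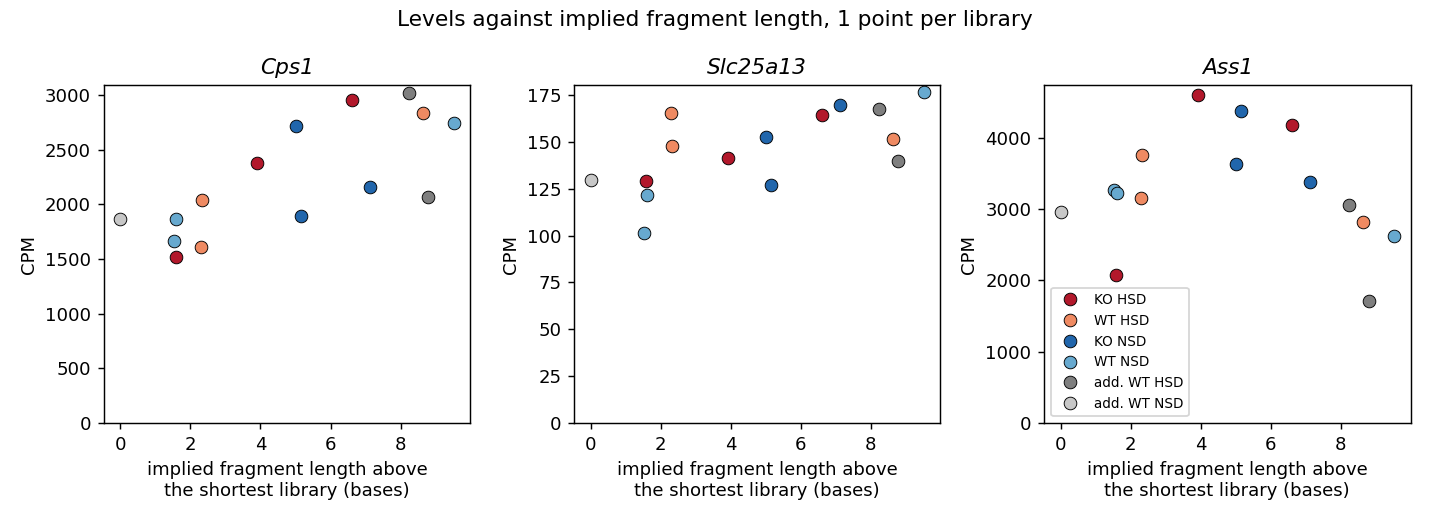
Level of Cps1, Slc25a13 and Ass1 in CPM (vertical axes) against the length of the sequenced fragments above that of the shortest library, in bases (horizontal axes), 1 point for each of the 15 libraries. Cps1 (r = 0.747) and Slc25a13 (r = 0.632) are higher in libraries with longer fragments, and Ass1 (r = -0.20) is not.

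Across the 15 libraries the genes did not move as a single block. Among the 36 pairs, the Pearson r of log2 CPM had a median of 0.288 and ran from -0.385 for Otc and Nags to 0.840 for Ass1 and Asl. Ass1 and Asl catalyse consecutive steps in the cytosol, and r of their deviations from the group means was 0.896. Ass1 and Gls2 had r = 0.688, Cps1 and Arg1 0.644, and Cps1 and Slc25a13 0.632. All 6 pairs with r below 0 contained Otc. After group means were taken off, Otc and Arg1 had r = 0.203 and Otc and Asl 0.392, and were no longer below 0. The libraries come from 1 tissue and differ in depth and fragment length, and these correlations are given as a description.

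Of 7290 other genes with a mean of at least 10 CPM, those most like the mean of the 9 in Pearson r over 15 libraries were Tbccd1 (0.863), Adk (0.846), Shmt1 (0.833), Hsd11b1 (0.814) and Gid8 (0.795). Adk encodes adenosine kinase, Shmt1 the cytosolic serine hydroxymethyltransferase and Hsd11b1 the enzyme that regenerates active glucocorticoid. The genes least like it were Jund (-0.816), Rras2 (-0.764), Vars2 (-0.764), Crtc3 (-0.755) and Jun (-0.735), of which Jund and Jun encode subunits of the AP-1 transcription factor. For single genes, the most alike were Aass for Cps1 (0.923), which begins lysine breakdown in mitochondria, Mcoln1 for Otc (0.904), Acot13 for Ass1 (0.893) and Fam169b for Asl (0.963). Ggt6 was most alike for Arg1 (0.832), Rtp3 for Nags (0.819), Tat for Slc25a15 (0.849), Mavs for Slc25a13 (0.897) and Shpk for Gls2 (0.840).

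The genes around the cycle were read from 4 lists. In KO NSD against WT NSD, 0 genes of any list were called in either direction by edgeR. Of 10 tested genes that supply ammonia, aspartate or bicarbonate, 7 were above 0 with a median log2 fold change of 0.11. Gpt, the alanine transaminase, had 0.60 ± 0.22 (SE, adjusted p = 0.208), and Glud1, glutamate dehydrogenase, had -0.30 ± 0.19 (SE, adjusted p = 0.536). Of 6 genes of glutamine synthesis and ammonium transport, 5 were above 0 with a median of 0.36. Slc1a2, the glutamate transporter of pericentral hepatocytes, had 0.74 ± 0.27 (SE, adjusted p = 0.208), and Rhbg, an ammonium channel, had 1.05 ± 0.53 (SE, adjusted p = 0.420). Glul, the glutamine synthetase that captures ammonia the cycle leaves, had 0.12 ± 0.17 (SE, adjusted p = 0.809).

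Of 7 tested genes of arginine and ornithine transport and use, 6 were above 0 with a median of 0.52. That median is the value of Slc7a1 (SE 0.50), which had only 0.171 to 1.29 CPM over the 15 libraries. Slc25a29 was also weakly detected, with 1.43 to 2.83 CPM. Odc1, which starts polyamine synthesis from ornithine, had 0.99 ± 0.29 (SE, adjusted p = 0.122). Nos2, the inducible nitric oxide synthase, was barely detected, with 1.44, 0.716 and 0.832 CPM in KO NSD, against 0, 0.116 and 0 CPM in WT NSD (adjusted p = 0.127). Oat, ornithine aminotransferase, had 0.76 ± 0.31 (SE, adjusted p = 0.281). These enzymes draw on arginine or ornithine, and none passed the test. The list of 10 regulators covers the urea cycle and its genes, and counts Sirt3, whose described action is on Otc protein, and Sirt5. Of these 10, 5 were above 0 and 5 below, with a median of 0.02. Foxa2 had 0.51 ± 0.26 (SE, adjusted p = 0.405) and Nr3c1, the glucocorticoid receptor, -0.17 ± 0.17 (SE, adjusted p = 0.725).

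In high against normal salt averaged over KO and WT, again 0 genes of any list were called by edgeR. Tat, tyrosine aminotransferase, had the smallest p of the supply genes, with a log2 fold change of -0.55 ± 0.19 (SE, adjusted p = 0.712), and Glud1 had -0.19 ± 0.13 (SE, adjusted p = 0.924); 3 of the 10 supply genes were above 0, with a median of -0.05. Of the 6 glutamine and ammonium genes 5 were above 0, with a median of 0.16, led by the amino acid transporters Slc38a2 at 0.42 ± 0.26 (SE, adjusted p = 0.895) and Slc38a4 at 0.21 ± 0.17 (SE, adjusted p = 0.947). Some regulators were near 0, with Sirt5 at 0.0011 ± 0.17, Nr3c1 at 0.02 ± 0.12 and Foxa2 at 0.03 ± 0.18 (SE). All 10 regulators lay above 0, with a median log2 fold change of 0.15 beside 0.00 over all genes. In WT HSD against WT NSD alone 6 of 10 did, with a median of 0.14, and in the additional set 4 of 10 did, with a median of -0.27. Sirt3 itself, on that list, had 0.39 ± 0.13 (SE, adjusted p = 0.711), and Foxo1 had 0.23 ± 0.12 (SE, adjusted p = 0.871). Hnf4a had 0.15 ± 0.15 and Cebpa 0.21 ± 0.15 (SE). Aqp9, the hepatocyte channel for glycerol and urea, had 0.26 ± 0.12 (SE, adjusted p = 0.834), and Nos2 had 1.38 ± 0.88 (SE, adjusted p = 0.901). Their arginine and ornithine list had 4 of 7 genes above 0 and a median of 0.17, again the value of the weakly detected Slc7a1. Markers of periportal hepatocytes, 4 of which are genes of the set, summed to 8003 to 13160 CPM in KO HSD and 9330 to 10060 CPM in WT HSD, against 9421 to 10890 CPM in KO NSD and 8418 to 10800 CPM in WT NSD, and their ranges overlapped.

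In the other comparisons, too, edgeR called 0 genes of the 4 lists in either direction. The values with the smallest p belonged to few genes. Tat, which was most like Slc25a15 across the libraries, had a log2 fold change of -0.95 ± 0.27 (SE, adjusted p = 1.00) in WT HSD against WT NSD and of 0.91 ± 0.27 (SE, adjusted p = 0.867) in KO HSD against WT HSD. The difference of its salt effects, KO minus WT, was 0.80 ± 0.37 (SE, adjusted p = 0.904). Cebpb, a C/EBP transcription factor induced in inflammation, had 0.85 ± 0.28 (SE, adjusted p = 0.933) in KO HSD against WT HSD and 0.63 ± 0.27 (SE, adjusted p = 0.578) in KO HSD against KO NSD. Odc1 had -0.78 ± 0.29 (SE, adjusted p = 0.542) in KO HSD against KO NSD, and the difference of its salt effects was -1.14 ± 0.41 (SE, adjusted p = 0.835). In KO HSD against KO NSD, 1 of 10 supply genes and 2 of 7 arginine and ornithine genes were above 0, with medians of -0.13 and -0.22, and 9 of 10 regulators were, with a median of 0.20. In WT HSD against WT NSD all 7 arginine and ornithine genes were above 0, with a median of 0.32. The difference KO minus WT for that list had a median of -0.81 with 1 of 7 above 0. Slc7a1, Slc25a29 and Nos2, all weakly detected, count in the totals of this list, and its median of -0.22 is the value of Slc25a29.

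In the additional set, high against normal salt, Rhbg had a log2 fold change of -3.10 ± 0.75, Slc38a3, a glutamine transporter, of -1.37 ± 0.53, Sds, serine dehydratase, of -1.22 ± 0.49, Slc25a22, a mitochondrial glutamate carrier, of -0.84 ± 0.32 and Cebpb of -1.09 ± 0.39 (SE, adjusted p = 0.412 for each by edgeR). Of the 6 glutamine and ammonium genes 1 was above 0, with a median of -0.76, where 5 of 6 were above 0 in WT HSD against WT NSD, with a median of 0.31. Pericentral hepatocyte markers, which share Glul and Slc1a2 with that list, were below 0 for 7 of 8 genes in the additional set (median -0.56), Kupffer cell and macrophage markers for 9 of 10 (-0.87) and cholangiocyte markers for 4 of 5 (-1.07), and their part was not tested. The difference for Rhbg, additional WT minus WT, was -3.40 ± 0.91 (SE, adjusted p = 0.355). Sirt3 also had opposite signs in both sets, with 48.8 and 47.4 CPM in the additional WT HSD libraries against 74.1 CPM in the additional WT NSD library, and with 83.9, 65.7 and 65.8 CPM in WT HSD against 49.8, 52.8 and 53.2 CPM in WT NSD. Its difference of salt effects was -1.09 ± 0.31 (SE, adjusted p = 0.355). In this set diet goes with fragment length, as given above.

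**Figure D4:**
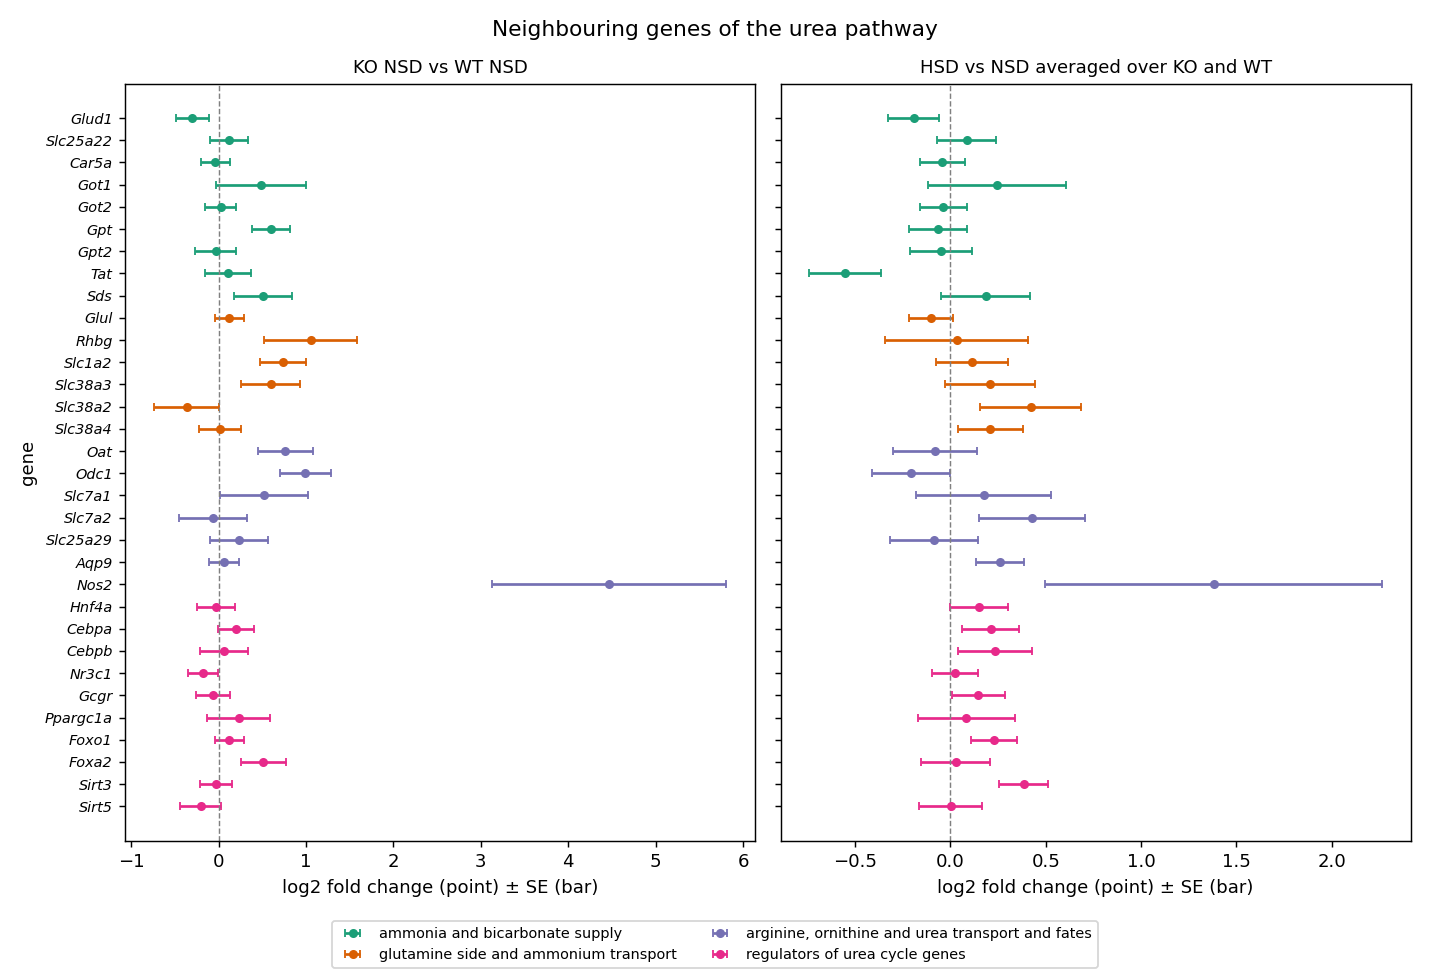
Log2 fold change of genes on the 4 lists around the cycle, in KO NSD against WT NSD and in high against normal salt averaged over both genotypes, with standard errors as bars. None of the genes shown passed an adjusted p of 0.05. All 10 regulators lie above 0 in the averaged salt comparison, some by little, such as Sirt5 at 0.0011. In the additional set, which is not shown, 4 of 10 lie above 0.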

How the data were processed

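Poly(A)-selected RNA of mouse liver was sequenced in 15 libraries. The authors deposited RSEM expected counts per gene, and for each library FPKM values as well; Bowtie2 2.2.5, RSEM 1.2.8 and the build mm10 are named in the submitters' processing notes. The sources used here do not name the annotation. Deposited expected counts, of which 69.3% to 72.6% per library were whole, were then rounded. A fit of group means took in the 12 libraries of the 4 main groups, in edgeR 4.0.16 (R 4.3.3) with its robust quasi-likelihood F test after TMM scaling and filterByExpr, with Benjamini-Hochberg adjustment over 13051 genes and a threshold of 0.05. The additional wild-type set entered a fit of all 15 libraries and 13864 genes. Adjusted p-values come from these fits unless a tool is named. CPM are counts over TMM-scaled library totals of all 15 libraries. Deposited FPKM served to compare genes. The edgeR fit of 12 libraries was tested on simulated data.

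Alternatives were RLE scaling, DESeq2 1.42.0, limma-voom 3.58.1, no filter, a replicate block, other sets of libraries and, added after the data were seen, fragment length. Named were the 9 genes, Sirt3, for each list around the cycle and comparison the 2 with the smallest p (in full for 2 comparisons, in part for the others), and the genes most and least alike. Glul, Oat, Hnf4a, Cebpa and Sirt5 were named outside this rule after their values were seen, as were Nr3c1 and Foxa2 in the averaged salt comparison. Slc7a1 and Slc25a29 were added for their low levels, and the markers Csf1r, Adgre1 and S100a9 for their values in single libraries. Of the 3 best matches of each gene only the first is given. A further gene of the supply list counts in its totals but is not reported here. The genes, lists and comparisons were chosen with earlier results of these data known. Nothing says that samples were separate animals, so p-values cover their spread alone, whatever its source, and an exact permutation test of 3 against 3 libraries cannot go below 0.1. A replicate block was also fitted to WT HSD and WT NSD alone. There, r of the deviations of same-number libraries was 0.23, 0.159 and 0.552. WT HSD 2 with WT NSD 1 had 0.465 and WT HSD 1 with WT NSD 2 had 0.259. The data therefore do not establish pairing by number, and the labels do not give it.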

Additional observations from a re-analysis of the deposited data

Results flagged for a closer look

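Otc had opposite directions with diet in the 2 wild-type sets. In the additional set its log2 fold change on high against normal salt was -0.41, with both high salt libraries, at 337 and 309 CPM, below the normal salt library at 430 CPM. In the main wild-type groups it was 0.34, with all 3 high salt libraries (443, 496 and 395 CPM) above all 3 on normal salt (361, 339 and 357 CPM). The difference itself, additional WT minus WT, was -0.75 ± 0.32 on the log2 scale (SE, unadjusted p = 0.036, adjusted p = 0.374 by edgeR), which did not pass after adjustment. The additional set has a single normal salt library, and diet goes with fragment length in it. There, 3 of the 9 genes had both high salt libraries above that library and 2 had both below, Otc among the latter. The share over all genes was not counted for this set. In the main wild-type groups, the libraries of 8.69% of all genes did not overlap.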

How the results depend on the processing

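The number of the 9 genes called was 0 in every comparison under every alternative run except DESeq2 in KO NSD against WT NSD, where it was 1 (Asl, adjusted p = 0.0254). Of 1462 alternative log2 fold changes, 1360 kept their direction and side of the threshold, 101 turned and 1 passed the threshold. The turned values belong to 33 of 64 gene results, none with an absolute log2 fold change over 0.4447. Asl in KO NSD against WT NSD and Otc in high against normal salt were never among them, with Asl between 0.79 and 0.96 and Otc between 0.36 and 0.54 when single libraries were left out. With fragment length in the fit, turned log2 fold changes were -0.0011 for Cps1 and -0.023 for Arg1 in KO NSD against WT NSD, 0.033 for Slc25a15 and 0.042 for Slc25a13 in KO HSD against KO NSD, 0.11 for Cps1 in the difference of salt effects KO minus WT and -0.37 for Cps1, -0.22 for Slc25a13 and -0.060 for Gls2 in additional WT HSD against additional WT NSD. With only the groups compared in the fit, turned log2 fold changes were -0.0015 for Arg1 in KO NSD against WT NSD. Without the 4 longest-fragment libraries, turned log2 fold changes were -0.063 for Nags and 0.085 for Gls2 in KO NSD against WT NSD, -0.059 for Ass1 and 0.018 for Nags in KO HSD against WT HSD, -0.23 for Cps1 and -0.078 for Gls2 in KO HSD against KO NSD, -0.052 for Arg1 and 0.082 for Nags in the difference of salt effects KO minus WT and -0.095 for Cps1 and -0.079 for Ass1 in high against normal salt averaged over KO and WT. Without KO NSD 1 and KO NSD 3, turned log2 fold changes were 0.030 for Slc25a15 in KO NSD against WT NSD, -0.24 for Cps1 and 0.0058 for Ass1 in KO HSD against KO NSD, 0.35 for Gls2 in the difference of salt effects KO minus WT and -0.099 for Cps1 in high against normal salt averaged over KO and WT. Without WT HSD 3 and WT NSD 3, turned log2 fold changes were 0.089 for Slc25a15 and 0.024 for Gls2 in KO NSD against WT NSD and 0.0013 for Asl in high against normal salt averaged over KO and WT. With limma-voom, turned log2 fold changes were -0.025 for Cps1 in KO HSD against KO NSD and -0.025 for Ass1 in high against normal salt averaged over KO and WT. With the replicate block, turned log2 fold changes were -0.014 for Ass1 in high against normal salt averaged over KO and WT. In KO NSD against WT NSD, leaving out 1 library in turn gave log2 fold changes of -0.041 to 0.33 for Cps1, -0.026 to 0.048 for Arg1, -0.059 to 0.18 for Nags, -0.17 to 0.090 for Slc25a15 and -0.36 to 0.12 for Gls2. In KO HSD against WT HSD, these spanned -0.14 to 0.33 for Cps1, -0.054 to 0.43 for Ass1, -0.032 to 0.23 for Arg1 and -0.28 to 0.066 for Gls2. In WT HSD against WT NSD, these spanned -0.20 to 0.28 for Cps1, -0.020 to 0.19 for Ass1, -0.083 to 0.34 for Asl and -0.11 to 0.032 for Nags. In KO HSD against KO NSD, these spanned -0.19 to 0.24 for Cps1, -0.28 to 0.21 for Ass1, -0.18 to 0.079 for Slc25a15, -0.12 to 0.063 for Slc25a13 and -0.12 to 0.36 for Gls2. In the difference of salt effects KO minus WT, these spanned -0.25 to 0.24 for Cps1, -0.38 to 0.11 for Ass1, -0.022 to 0.22 for Arg1 and -0.25 to 0.24 for Gls2. In high against normal salt averaged over KO and WT, these spanned -0.081 to 0.16 for Cps1, -0.091 to 0.15 for Ass1 and -0.19 to 0.058 for Asl. In additional WT HSD against additional WT NSD, these spanned -0.79 to 0.049 for Ass1, -0.81 to 0.040 for Asl, -0.24 to 0.51 for Arg1 and -0.54 to 0.54 for Gls2. The cause of these turns was not tested. With the replicate block, 98 genes were called in KO NSD against WT NSD in place of 54. DESeq2 called 661, limma-voom 29 and the fit with fragment length 357. The count was 11 without KO NSD 1, 12 without KO NSD 3 and 420 without KO NSD 2. In the last case only the KO NSD libraries without Y-linked transcripts remained. Leaving out WT NSD 1, WT NSD 2 or WT NSD 3 gave 6, 5 and 35. Over all groups, libraries with the same replicate number were not shown to pair. The r of their deviations ranged from -0.314 to 0.552 over 18 pairs, with 7 over 0.1. All 3 same-number pairs of WT HSD and WT NSD were over 0.1. So were WT HSD 2 with WT NSD 1 (0.465) and WT HSD 1 with WT NSD 2 (0.259). Numbers are therefore not shown to pair the libraries of WT HSD and WT NSD. With the replicate block in a fit of these 6 libraries, added after the data were seen, Otc had 0.33 (adjusted p = 0.734) and Arg1 -0.27 (adjusted p = 0.800). Neither block changed a call among the 9 genes. Depth limits these genes little, as the lowest count of any was 743, for Nags.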
